A study of Mus musculus with 8 samples.

Results

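B cells and plasma cells were followed in mouse lung through 9 genes that mark them: Cd79a, Cd79b, Cd22, Ms4a1, Blk, Pax5, Pou2af1, Jchain and Mzb1. They were chosen by name, and all 9 passed the filter on dim signals, among 13853 genes tested. The array carried 12 probe sets (groups of oligonucleotides that read 1 transcript) for them, 1 for each of 6 genes and 2 for each of Cd22, Ms4a1 and Pax5. The probe set with the highest mean over the 8 arrays stands for the gene, and the other is given beside it.

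Male ICR mice, an outbred stock aged 5 to 6 weeks, gave the RNA, which was taken from lobe 1 on the right side. There were 4 groups of 2 arrays. Lungs were taken on day 7 after 0.5 mg of single-walled carbon nanotubes (SWCNT) or after the solvent alone, and on day 1 after SWCNT or solvent. All mice, controls included, had been put under pentobarbital, had the trachea exposed by a neck incision and were instilled with the surfactant Pluronic F-68 (PF68). The nanotubes were given in 50 µl of it at 0.1%. No untouched mice were analysed here, so PF68 lungs are themselves lungs after instillation. The labels name the arrays of a group as biological replicates without saying which animals they came from. P-values therefore measure the spread between these arrays only, which may be technical. The study set SWCNT against PF68 on each day to look for mechanisms of nanotube toxicity in lung.

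B cells recognise antigen through a membrane antibody that signals through the paired proteins Cd79a and Cd79b, with Blk, a Src family kinase, among the kinases downstream and Cd22 as an inhibitory co-receptor. Ms4a1 encodes CD20, Pax5 is the factor that holds B cell identity, and Pou2af1 (OBF-1) is the co-activator that works with octamer-binding factors. When B cells become plasma cells, Pax5 and most receptor genes are turned down, and genes of antibody secretion are turned up. Jchain encodes the joining chain that links IgA and IgM into polymers, and Mzb1 an endoplasmic reticulum co-chaperone that helps antibody assembly. The airways hold both cell types, and IgA is the main antibody of their mucosa. In RNA from a whole lobe, fewer cells of a type and less RNA per cell cannot be told apart.

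Signals are on a scale read as log2, with a median of -0.628 on every array. A value near or below that median is called dim here, and whether the transcript was present was not tested. Levels of different genes cannot be ranked on this scale. Replicate arrays correlated at 0.942 to 0.965 over the genes tested, and arrays of different groups at 0.899 to 0.943 (Pearson's r across genes, a description). The lung labels fitted the defining markers: Sftpc, a surfactant gene of alveolar cells, averaged 7.72 in SWCNT and 7.89 in PF68 lungs on day 7, and 7.99 in SWCNT and 7.79 in PF68 lungs on day 1, near the top of the scale, and Scgb1a1 of club cells 8.20 to 8.31 over the groups. Measures of RNA quality differed between the groups. The 3′ minus 5′ control signal of beta-actin, which grows as RNA is shortened, was 2.97 ± 0.035 in SWCNT and 3.27 ± 0.029 in PF68 lungs on day 7, and 1.34 ± 0.033 in SWCNT and 2.02 ± 0.023 in PF68 lungs on day 1 (SD, n = 2 each). Striated muscle RNA also moved with a group: 7 of 7 skeletal muscle markers were called higher in SWCNT lungs on day 1, and their mean signal was 3.18 to 3.19 on those arrays, against -1.40 to -1.08 in PF68 lungs. The part of RNA quality and of muscle RNA in the results that follow was not tested.

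**Figure D1:**
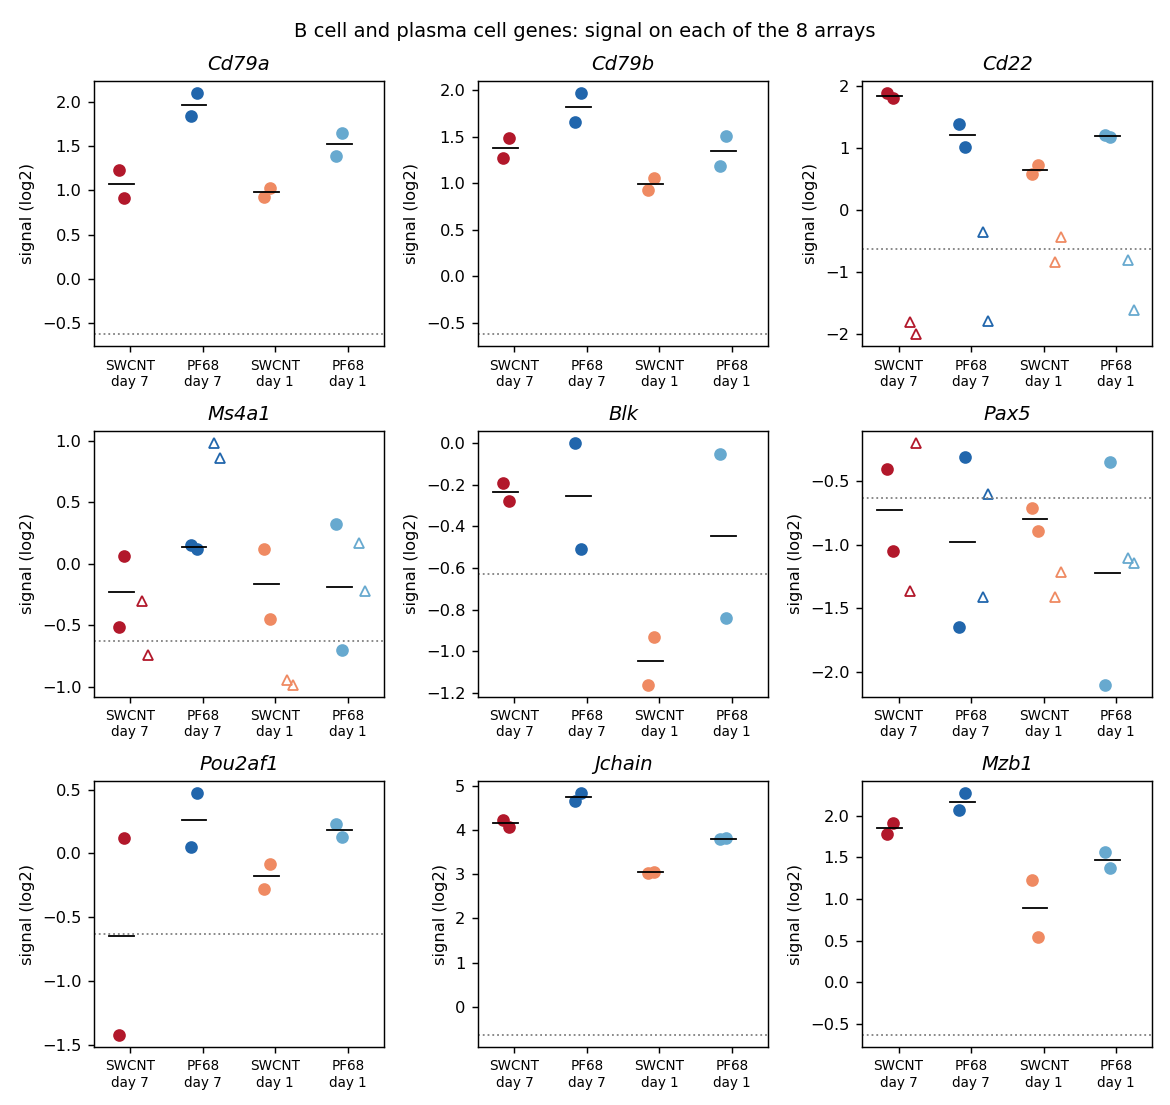
Signal (log2) of the 9 genes on each of the 8 arrays, with the groups in columns. Filled circles are the arrays of the main probe set, bars their means, open triangles the other probe set of Cd22, Ms4a1 and Pax5, and the dotted line is the array median of -0.628. Jchain lies far above that line in every group, while Pax5, Blk and Ms4a1 lie nearer to it and their replicates scatter widely in some groups.

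Sequence upstream of the transcription start is shown for 3 genes that the results turn on: Jchain, the only member called between treatments, Cd79a, which lay below PF68 on both days, and Cd22, whose difference changed sign between the days. The 250 bases before the start come from RefSeq on build GRCm38.p6, and 5 of the 9 members had an entry. Capitals mark matches on either strand to motifs that B lineage factors are known to bind: ATGCAAAT (the octamer), CCCNNGGG (a palindrome of the kind EBF1 binds), GAGGAA (a core bound by PU.1 and Spi-B) and CAGGTG (an E box). No match overlapped another.
Jchain, chr5:88527898-88528147, minus strand: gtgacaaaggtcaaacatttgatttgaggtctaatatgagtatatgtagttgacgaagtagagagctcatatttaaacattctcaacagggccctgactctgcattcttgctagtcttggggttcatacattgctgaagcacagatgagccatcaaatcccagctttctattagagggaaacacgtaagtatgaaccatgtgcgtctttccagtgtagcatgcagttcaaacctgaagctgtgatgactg
Cd79a, chr7:24897247-24897496, plus strand: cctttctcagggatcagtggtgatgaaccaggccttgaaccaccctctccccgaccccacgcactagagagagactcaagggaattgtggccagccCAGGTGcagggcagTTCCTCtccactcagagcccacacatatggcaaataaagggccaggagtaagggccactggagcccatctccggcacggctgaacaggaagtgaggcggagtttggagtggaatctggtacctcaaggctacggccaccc
Cd22, chr7:30879029-30879278, minus strand: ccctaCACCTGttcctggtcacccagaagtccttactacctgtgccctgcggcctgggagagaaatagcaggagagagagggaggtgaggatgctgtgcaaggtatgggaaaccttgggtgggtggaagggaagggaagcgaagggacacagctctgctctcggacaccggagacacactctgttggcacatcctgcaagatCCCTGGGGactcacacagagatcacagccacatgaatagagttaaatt
Jchain held no match, Cd79a held the E box and GAGGAA in reverse, and Cd22 held the E box in reverse and the palindrome. Neither Pax5 nor Pou2af1 held a match. The octamer was in none of the 5 member promoters and in 1.6% of 32851 promoters of the same length, the palindrome in 11.8%, GAGGAA in 23.3% and the E box in 17.2%. These matches describe the letters in the window and say nothing about binding.

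On day 1, Jchain, the joining chain of IgA and IgM, was lower in SWCNT lungs. Its signal was 3.03 and 3.06 in SWCNT lungs, against 3.80 and 3.81 in PF68 lungs. Both SWCNT arrays lay below both PF68 arrays, with replicates that differed by a few hundredths. The difference was -0.76 ± 0.12 (SE; 2 arrays against 2, adjusted p = 0.044 by limma), or 1.69-fold lower. It was the only member called on day 1, where 1.23% of all genes were called lower and 0.931% higher. The size held when any of the 8 arrays was left out (-0.77 to -0.75), but the call did not (adjusted p = 0.0634 to 0.231). It was also lost with no filter (adjusted p = 0.0975), in fits of probe sets in place of genes (adjusted p = 0.072) or of their mean (adjusted p = 0.0574), and with the day 1 arrays alone (adjusted p = 0.125). The group means of Jchain ran in the same order as beta-actin's 3′ minus 5′ signal, as they did for Cd79b, Mzb1 and 10.9% of all genes.

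The other antibody secretion gene, Mzb1, was not called. It read 1.23 and 0.55 in SWCNT lungs on day 1, against 1.56 and 1.37 in PF68 lungs, a difference of -0.57 ± 0.24 (limma, adjusted p = 0.283). The groups did not overlap, but the SWCNT arrays were further from each other than either PF68 array was from the nearer SWCNT array.

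The receptor genes pointed the same way and were not called. Cd79a read 0.93 and 1.03 in SWCNT lungs on day 1, against 1.39 and 1.65 in PF68 lungs (-0.54 ± 0.18, limma, adjusted p = 0.19). Cd79b read 0.93 and 1.06 in SWCNT lungs, against 1.18 and 1.51 in PF68 lungs (-0.35 ± 0.18, adjusted p = 0.374). Both genes of the signalling pair thus lay below PF68 without overlap, and neither passed the test. Cd22, the inhibitory co-receptor, read 0.58 and 0.72 in SWCNT lungs, against 1.21 and 1.18 in PF68 lungs (-0.55 ± 0.15, adjusted p = 0.145). Its other, dim probe set read -0.84 and -0.44 in SWCNT lungs, against -0.80 and -1.61 in PF68 lungs, which overlapped. For Blk, the kinase, signals were -1.16 and -0.93 in SWCNT lungs, both below the array median, against -0.05 and -0.84 in PF68 lungs (-0.60 ± 0.30, adjusted p = 0.359).

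Ms4a1 (CD20) gave different answers by probe set. The main probe set read 0.12 and -0.45 in SWCNT lungs on day 1, against 0.32 and -0.70 in PF68 lungs, so the groups overlapped and differed by 0.02 ± 0.39 (limma, adjusted p = 0.983). The other read -0.94 and -0.98 in SWCNT lungs, against 0.17 and -0.22 in PF68 lungs, without overlap (-0.94 ± 0.21, adjusted p = 0.127 over all 23304 passing probe sets). Of the transcription factor genes, Pou2af1 read -0.28 and -0.08 in SWCNT lungs, against 0.23 and 0.13 in PF68 lungs, without overlap (-0.35 ± 0.48, adjusted p = 0.758). Pax5 spanned -0.89 to -0.71 in SWCNT lungs and -2.10 to -0.35 in PF68 lungs (0.43 ± 0.69, adjusted p = 0.796), and its other probe set differed by -0.19.

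Counted together on day 1, 7 of the 9 members lay below PF68 with no overlap of arrays, where 28.6% of all genes did so and 24.6% lay above, and the other 2 overlapped. The median member differed by -0.54, against -0.02 for the median of all genes. Scaling the arrays to the bacterial hybridization spikes moved that all-gene median to -0.24 on day 1 and to 0.55 on day 7 from 0.02 as deposited, and on day 1 it turned the sign of Ms4a1 alone among the members (-0.19). All differences are given on the deposited scale.

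On day 7 no member was called between SWCNT and PF68 lungs with limma, where 2.18% of all genes were (1.40% higher and 0.780% lower). An unadjusted p under 0.05 was found for 3 members (Cd79a, Cd22 and Jchain), and for 3205 of all 13853 genes. Cd79a read 1.23 and 0.91 in SWCNT lungs, against 1.84 and 2.10 in PF68 lungs. The SWCNT arrays lay wholly below the PF68 arrays, by -0.90 ± 0.18 or 1.86-fold (adjusted p = 0.0631). Its partner Cd79b read 1.27 and 1.49 in SWCNT lungs, against 1.66 and 1.97 in PF68 lungs (-0.44 ± 0.18, adjusted p = 0.222), a sign that spike scaling turned (0.09). Jchain read 4.23 and 4.07 in SWCNT lungs, against 4.65 and 4.83 in PF68 lungs (-0.59 ± 0.12, adjusted p = 0.0658), and with spike scaling the difference was -0.06. Mzb1 read 1.78 and 1.92 in SWCNT lungs, against 2.07 and 2.27 in PF68 lungs (-0.32 ± 0.24, adjusted p = 0.468), with the sign turned by spike scaling (0.20). For each of these 4 genes the groups did not overlap. Whether such a small gap passed depended on how the variance was modelled. With a mean-variance trend and robust settings in limma 3 members were called: Cd79a (adjusted p = 0.00838) and Jchain (adjusted p = 0.00149) lower, and Cd22 (adjusted p = 0.0405) higher. That fit called 1617 of all 13853 genes on day 7, 894 higher and 723 lower.

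Cd22 stood on the other side of PF68 on day 7. It read 1.88 and 1.80 in SWCNT lungs, against 1.38 and 1.02 in PF68 lungs, a difference of 0.64 ± 0.15 (limma, adjusted p = 0.0844). The SWCNT arrays lay above the PF68 arrays, the only member where they did so without overlap, against 28.2% of all genes. The other Cd22 probe set went the opposite way: -1.80 and -2.00 in SWCNT lungs, against -0.36 and -1.78 in PF68 lungs. All 4 of those signals but -0.36 were below the array median. Averaging the probe sets left Cd22 at -0.09 on day 7 and 0.01 on day 1.

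The other members were close together or scattered on day 7. For Ms4a1 the main probe set read -0.51 and 0.06 in SWCNT lungs, against 0.15 and 0.12 in PF68 lungs (-0.36 ± 0.39, limma, adjusted p = 0.63, or 0.17 with spike scaling). Its other probe set had the largest gap of the 12 probe sets, -0.30 and -0.74 in SWCNT lungs against 0.98 and 0.86 in PF68 lungs (-1.44 ± 0.21, 2.72-fold lower, adjusted p = 0.0561 over all passing probe sets). Both CD20 probe sets thus lay below PF68 on day 7 without overlap, and neither passed. With spike scaling the second passed at a smaller gap (-0.91, limma, adjusted p = 0.0238). On that scale 5893 of all 13853 genes were called on day 7, 5813 of them higher. Blk averaged -0.24 in SWCNT lungs and -0.26 in PF68 lungs (0.02 ± 0.30, adjusted p = 0.978). Pou2af1 read -1.42 and 0.12 in SWCNT lungs, against 0.05 and 0.47 in PF68 lungs (-0.91 ± 0.48, adjusted p = 0.321), so that 1 SWCNT array carried the gap: without replicate 1 of that group the difference was -0.14. Pax5 read -0.40 and -1.05 in SWCNT lungs, against -1.65 and -0.31 in PF68 lungs (0.26 ± 0.69, adjusted p = 0.856). In all, 5 members lay below PF68 without overlap, where 25.0% of all genes did so, and the median member differed by -0.36, against 0.02 for all genes.

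**Figure D2:**
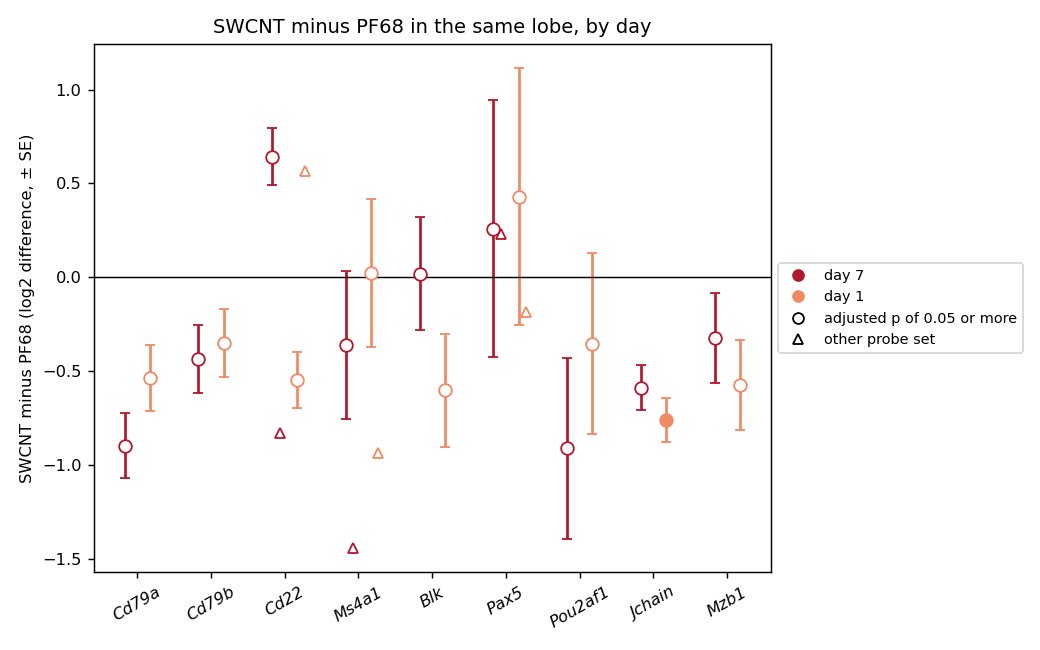
SWCNT minus PF68 (log2 difference) for each member on day 7 and day 1. Circles with bars are the main probe set ± SE, filled where the adjusted p was under 0.05, and open triangles are other probe sets. Only Jchain on day 1 (-0.76) is filled, and Cd22 is the only main probe set whose SE bars lie on opposite sides of 0 on the 2 days (0.64 on day 7, -0.55 on day 1).

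The change in the SWCNT effect from day to day was tested as its own contrast, day 7 minus day 1. No member was called with limma, where 2.35% of all genes were (1.41% in the positive direction). An unadjusted p under 0.05 was found for 2886 of all 13853 genes and for 1 member. That was Cd22, at 1.19 ± 0.21 (adjusted p = 0.0537), with its other probe set at -1.40. Its call changed with the procedure. It passed with array weights (adjusted p = 0.0496), with values below the median set to it (adjusted p = 0.0302), with the variance trend (adjusted p = 0.0116) and with spike scaling (1.93, adjusted p = 0.00536). Its adjusted p ran from 0.00536 to 0.935 over all alternatives, the highest for the mean of its probe sets. For Jchain the effect differed between the days by 0.17 ± 0.17 (adjusted p = 0.608), and for Cd79a by -0.36 ± 0.25 (adjusted p = 0.466), so neither was called. With spike scaling, which moved the all-gene median of this contrast to 0.80 from 0.05 as deposited, Jchain was called at 0.92 (adjusted p = 0.0161) and Cd79a stood at 0.39 (adjusted p = 0.279). That scaling called 6127 of all 13853 genes for this contrast, 6017 of them in the positive direction.

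More genes were called between the days (16.3% in SWCNT and 17.7% in PF68 lungs) than between treatments. In SWCNT lungs 3 members were called, all higher on day 7 than on day 1, where 9.59% of all genes were called higher and 6.70% lower. Jchain averaged 4.15 on day 7 and 3.04 on day 1, a difference of 1.11 ± 0.12 (limma, adjusted p = 0.00723), or 2.16-fold. Cd22 averaged 1.84 on day 7 and 0.65 on day 1 (1.19 ± 0.15, adjusted p = 0.00892), while its other probe set was at -1.26 and the mean of both at -0.03. Mzb1 averaged 1.85 on day 7 and 0.89 on day 1 (0.96 ± 0.24, adjusted p = 0.0484). So both antibody secretion genes rose with time in SWCNT lungs, and neither gene of the receptor pair was called. Cd79a was 1.07 on day 7 and 0.98 on day 1 (0.09 ± 0.18), and Cd79b 1.38 on day 7 and 1.00 on day 1 (0.39 ± 0.18, adjusted p = 0.202).

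These calls leaned on few arrays. Jchain in SWCNT lungs lost its call without either SWCNT day 7 array (adjusted p = 0.0516 and 0.0552), and Cd22 without any of the 4 SWCNT arrays (adjusted p = 0.0507 to 0.0604). Mzb1 kept its call without replicate 1 of SWCNT day 1, where the difference was 1.30 (adjusted p = 0.0452), and lost it without each of the other 7 arrays (adjusted p = 0.0667 to 0.178). Without replicate 2 of SWCNT day 1, whose Mzb1 signal of 0.55 was the lowest of the 8, the difference was 0.61. Blk was not called (0.81 ± 0.30, adjusted p = 0.126), although its SWCNT arrays on day 7 all lay above those on day 1. In SWCNT lungs 5 members lay higher on day 7 without overlap, where 36.6% of all genes did so and 26.2% lay lower.

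In PF68 lungs all 9 members had a day 7 mean above the day 1 mean, a sign that did not hold with spike scaling, which lowers every gene alike and took the all-gene median of this contrast to -0.56 from 0.04 as deposited. On that scale Jchain stood at 0.34, Mzb1 at 0.11 and the other 7 members below 0. Cd22 was called lower there (-0.59, limma, adjusted p = 0.0164), as were 5756 of all 13853 genes. On the deposited scale Jchain was the only call among the main probe sets. It averaged 4.74 on day 7 and 3.80 on day 1 (0.94 ± 0.12, limma, adjusted p = 0.0102), where 8.86% of all genes were called higher. That call was lost without either PF68 day 1 array (adjusted p = 0.0652 and 0.0718) and with spike scaling (adjusted p = 0.0937). Mzb1 averaged 2.17 on day 7 and 1.47 on day 1 (0.71 ± 0.24, adjusted p = 0.0985). Cd79a averaged 1.97 on day 7 and 1.52 on day 1 (0.45 ± 0.18, adjusted p = 0.133), and Cd79b 1.82 on day 7 and 1.35 on day 1 (0.47 ± 0.18, adjusted p = 0.13). Cd22 averaged 1.20 on day 7 and 1.19 on day 1 (0.00 ± 0.15, adjusted p = 0.987). The second probe set of Ms4a1 read 0.98 and 0.86 on day 7, against 0.17 and -0.22 on day 1, and it passed over all probe sets (0.94 ± 0.21, limma, adjusted p = 0.0366), while the main probe set did not (0.32 ± 0.39, adjusted p = 0.61). That call held without either SWCNT day 7 array (adjusted p = 0.0477) and was lost without each of the other 6 arrays (adjusted p = 0.0689 to 0.162) and with spike scaling (0.35, adjusted p = 0.229). In PF68 lungs 4 members (Cd79a, Cd79b, Jchain and Mzb1) lay higher on day 7 without overlap, where 32.5% of all genes did so.

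**Figure D3:**
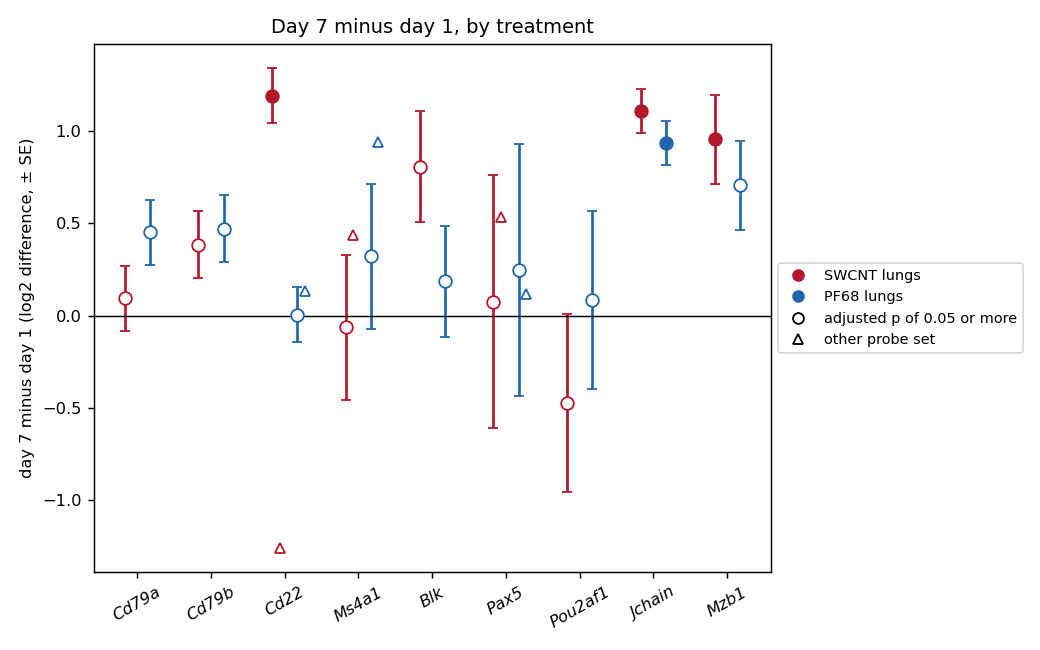
Day 7 minus day 1 (log2 difference) for each member in SWCNT and in PF68 lungs. Circles with bars are the main probe set ± SE, filled where the adjusted p was under 0.05, and triangles are other probe sets. Jchain is filled in both treatments (1.11 in SWCNT and 0.94 in PF68 lungs), and Cd22 (1.19) and Mzb1 (0.96) in SWCNT lungs only.

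Across the 8 arrays, and as a description only, the members did not move as a block. The mean of the 7 B cell members, each centred on its own mean, was 0.01 in SWCNT and 0.26 in PF68 lungs on day 7, and -0.27 in SWCNT and 0.00 in PF68 lungs on day 1. The median Pearson correlation of a member with the other 8 was highest for Jchain (0.64) and Mzb1 (0.58), and lowest for Pax5 (-0.05). The genes outside the list most like that B cell mean were Syf2 (r = 0.98), Wdr60, Slc35d2, Fbxo10 and Prpf4b (0.96 to 0.97), over 8 arrays in 4 groups. Those most like Jchain were Slc9a3r1 (r = 0.99), Cdk16, Limd2, Gpn1 and Tmem109 (0.99). The group means of each of these outside genes ran in the same order as beta-actin's 3′ minus 5′ signal, as did those of 10.9% of all genes.

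Antibody genes were counted beside Jchain. Of 14 immunoglobulin genes tested, 2 were called lower in SWCNT lungs on day 7, where 0.780% of all genes were, and none higher. The differences of 12 of 14 lay below 0, with a median of -0.54, against 0.02 for all genes. Igha, the heavy chain of the IgA that Jchain polymerises, read 5.76 and 5.69 in SWCNT lungs, against 6.57 and 6.60 in PF68 lungs (-0.87 ± 0.11, limma, adjusted p = 0.0353, but -0.34 and 0.0674 with spike scaling), and its 2 other probe sets differed by -0.89 and -0.45. Ighg3, the heavy chain of IgG3, read -0.46 and -0.27 in SWCNT lungs, against 1.51 and 2.01 in PF68 lungs (-2.12 ± 0.21, adjusted p = 0.0227). The PF68 arrays stood apart above the SWCNT arrays for both. Both calls were lost when any 1 array was left out (adjusted p = 0.054 to 0.159).

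On day 1 only Ighm, the heavy chain of IgM, was called among the 14, and it was higher in SWCNT lungs. It read 3.90 and 3.96 in SWCNT lungs, against 2.85 and 3.08 in PF68 lungs (0.96 ± 0.16, limma, adjusted p = 0.0484), but its 7 other probe sets differed by -2.11 to -0.01, and the mean of all its probe sets by -0.49. Between the days the SWCNT effect changed for Ighg3 (-2.46 ± 0.30, adjusted p = 0.0286) and Ighm (-1.68 ± 0.22, adjusted p = 0.0336). For Ighm that change was 0.22 over the mean of its probe sets. With 1 array left out, Ighg3 kept its call in 1 of 8 fits and Ighm in none. Immunoglobulin probe sets can bind several related chains, so these symbols name the probe set more surely than the chain.

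With time, Igha and Ighg3 rose in PF68 lungs: Igha by 0.70 ± 0.11 (limma, adjusted p = 0.0152) and Ighg3 by 1.50 ± 0.21 (adjusted p = 0.0118). With spike scaling these were 0.11 for Igha, no longer called (adjusted p = 0.512), and 0.91 for Ighg3 (adjusted p = 0.0246). In SWCNT lungs none of the 14 was called higher on day 7, and 3 were called lower, where 6.70% of all genes were. These were a kappa light chain variable gene (-2.44 ± 0.42, adjusted p = 0.0178), Ighm (-1.48 ± 0.16, adjusted p = 0.00713, or 0.04 over the mean of its probe sets) and Ighg3 (-0.96 ± 0.21, adjusted p = 0.0347, or 0.0589 with spike scaling). Jchain, by contrast, was called higher on day 7 in both treatments.

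**Figure D4:**
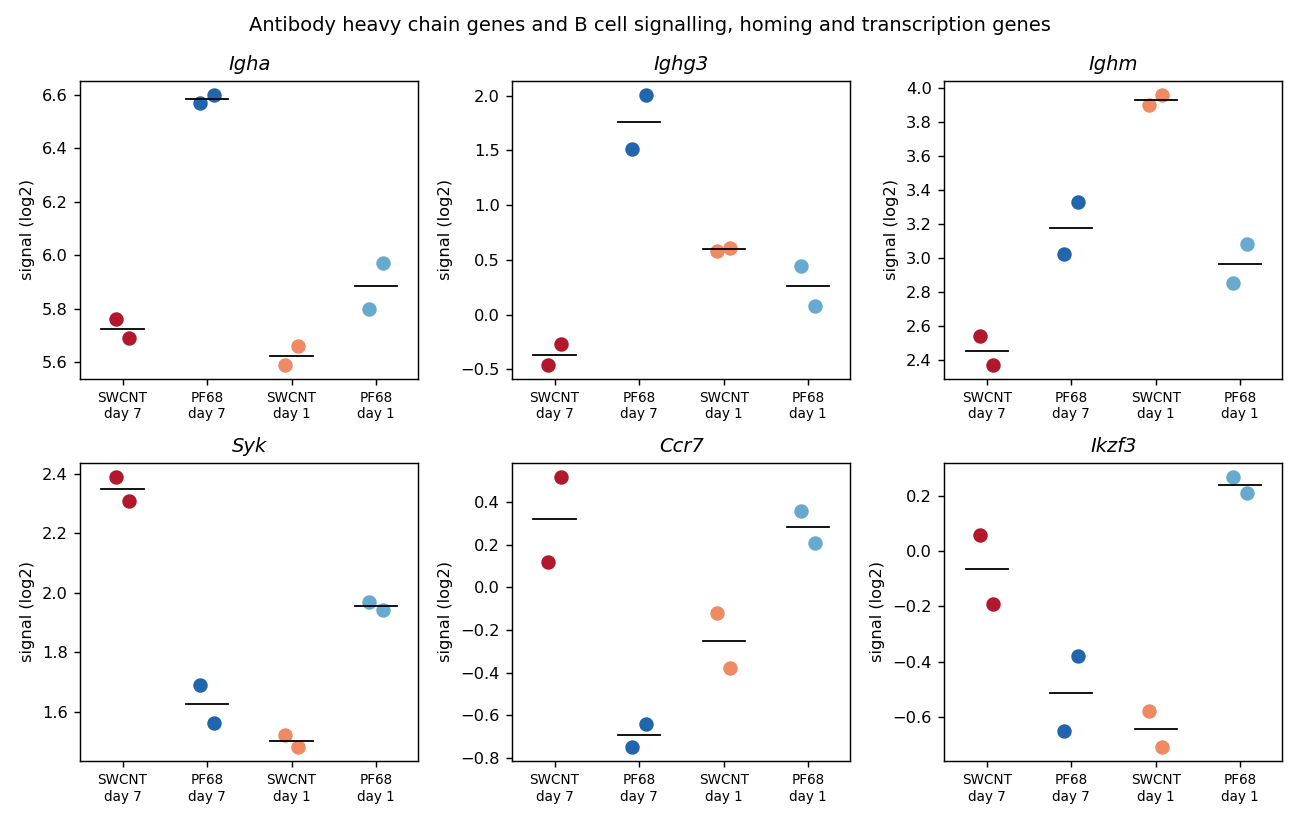
Signal (log2) on each array for the antibody heavy chain genes Igha, Ighg3 and Ighm and for Syk, Ccr7 and Ikzf3, with group means as bars. For Igha and Ighg3 the PF68 day 7 arrays are the highest of the 4 groups. For Syk and Ccr7 the SWCNT arrays lie above PF68 on day 7 and below it on day 1.

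Of 12 tested genes of B cell signalling, 9 lay below PF68 on day 1, with a median of -0.58 against -0.02 for all genes. On that day 7 of the 12 had an unadjusted p under 0.05, as did 2572 of all 13853 genes (3205 on day 7). The 1 gene of the list that was called went the other way. This was Fcgr2b, an inhibitory Fc receptor also found on myeloid cells. It was higher, at 1.54 and 1.55 in SWCNT lungs against 0.92 and 0.93 in PF68 lungs (0.62 ± 0.10, limma, adjusted p = 0.0487), with its 3 other probe sets at 0.66 to 0.80. On day 7, 1 of 12 was called, Syk, the kinase that binds the phosphorylated receptor pair and is shared by many leukocytes. It read 2.39 and 2.31 in SWCNT lungs, against 1.69 and 1.56 in PF68 lungs (0.72 ± 0.11, adjusted p = 0.0407; other probe set 0.44). Syk was below PF68 on day 1, at 1.52 and 1.48 against 1.97 and 1.94, and the change of effect was called (1.18 ± 0.15, adjusted p = 0.0308; other probe set 0.33). On day 7 the median of the list was -0.21, with 8 of 12 below 0 and 3 at an unadjusted p under 0.05. Fcgr2b was not called with spike scaling (0.40, adjusted p = 0.104), nor was Syk on day 7 over the mean of its probe sets (0.58, adjusted p = 0.177).

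Of 11 B cell surface and homing genes none was called on either day with limma. An unadjusted p under 0.05 was found for 4 on day 1 and 2 on day 7, against 2572 and 3205 of all 13853 genes. All 11 lay below 0 on day 1, with a median of -0.53. On day 7 the median was 0.28, with 6 of 11 above 0, and the change of effect was above 0 for 9 of 11. Ccr7, the receptor that guides lymphocytes and dendritic cells to lymph nodes, was called between treatments for the change of effect and on neither day alone (1.55 ± 0.25, adjusted p = 0.0471). It read 0.12 and 0.52 in SWCNT lungs, against -0.75 and -0.64 in PF68 lungs on day 7, and -0.12 and -0.38 in SWCNT lungs, against 0.36 and 0.21 in PF68 lungs on day 1. Fcer2a, the low-affinity IgE receptor of B cells, had the largest day 1 difference and was not called (-1.15 ± 0.55, adjusted p = 0.341). Its signals were dim, at -1.13 and -2.71 in SWCNT lungs against -0.53 and -1.01 in PF68 lungs. With values below the median set to it the Fcer2a difference was -0.05. Of 11 transcription factors, none was called on either day (3 on day 1 and 1 on day 7 at an unadjusted p under 0.05). Ikzf3 (Aiolos) was called for the change of effect (1.34 ± 0.21, adjusted p = 0.046; other probe set 0.48) and missed the threshold on day 1 (-0.89 ± 0.15, adjusted p = 0.0508; other probe set 0.03). Pou2f2 (Oct-2) had the largest day 7 difference of that list and a wide error (-1.10 ± 0.87, adjusted p = 0.495), which turned to 0.26 without replicate 1 of SWCNT day 7. The calls of Fcgr2b, Syk, Ccr7 and Ikzf3 named here were each lost when any 1 array was left out (adjusted p = 0.0588 to 0.237).

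None of 12 tested plasma cell genes was called between treatments on day 1 or day 7 with limma, and their medians were 0.04 and 0.11. An unadjusted p under 0.05 was found for 1 on day 1 and 5 on day 7, against 2572 and 3205 of all 13853 genes. Irf4, a factor of plasma cell differentiation, had the largest difference on both days, at -0.95 ± 0.23 on day 7 (adjusted p = 0.0907) and 0.44 ± 0.23 on day 1 (adjusted p = 0.376), from dim signals, and the largest change of effect (-1.39 ± 0.33, adjusted p = 0.0905). With time, 3 of 12 were called higher in each treatment, where 9.59% of all genes were in SWCNT and 8.86% in PF68 lungs. In SWCNT lungs these were Sec11c, a signal peptidase subunit (0.82 ± 0.14, limma, adjusted p = 0.0172; other probe set -0.31), Creld2 (0.78 ± 0.16, adjusted p = 0.0284) and Hspa5, the chaperone BiP (0.53 ± 0.11, adjusted p = 0.0311; other probe sets -0.09 and 0.50). In PF68 lungs they were Fkbp11 (0.96 ± 0.22, adjusted p = 0.0353), Creld2 (0.66 ± 0.16, adjusted p = 0.0425) and Sec11c (0.54 ± 0.14, adjusted p = 0.0494, other probe set 1.49). Over the mean of its probe sets Sec11c was not called, at 0.25 in SWCNT (adjusted p = 0.746) and 1.01 in PF68 lungs (adjusted p = 0.178). With spike scaling all 3 calls in PF68 lungs were lost, at 0.37 for Fkbp11 (adjusted p = 0.244), 0.06 for Creld2 (adjusted p = 0.798) and -0.06 for Sec11c (adjusted p = 0.802). Every secretory cell uses these genes, and lung epithelium is rich in such cells.

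In SWCNT lungs over time 3 of 12 signalling genes were called higher, where 9.59% of all genes were. These were Blnk, the adaptor that Syk phosphorylates (1.44 ± 0.23, limma, adjusted p = 0.015), Syk (0.85 ± 0.11, adjusted p = 0.00887, other probe set -0.09) and Pik3ap1 (0.53 ± 0.11, adjusted p = 0.0267). Blnk read 1.47 and 1.27 on day 7, against -0.31 and 0.17 on day 1. Of the surface genes Cd83, an activation marker, was called higher (1.13 ± 0.20, adjusted p = 0.0202), and no transcription factor was called, Spib having the largest difference (0.79 ± 0.35, adjusted p = 0.182). In PF68 lungs Ccr7 (-0.98 ± 0.18, adjusted p = 0.0206), Ikzf3 (-0.75 ± 0.15, adjusted p = 0.0251) and Irf8 (-0.49 ± 0.11, adjusted p = 0.0306) were lower on day 7 than on day 1, and no signalling gene was called, Blnk being at 0.70 ± 0.23 (adjusted p = 0.0928).

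Among 5 tested niche genes, which attract or sustain B cells, Il6, a cytokine that supports plasma cells, was lower in SWCNT lungs on day 1, at -0.51 and -0.85 against 0.23 and 0.26 in PF68 lungs (-0.92 ± 0.15, limma, adjusted p = 0.0498; 0.0754 to 0.243 with any 1 array left out, and 0.305 with the variance trend). None was called on day 7 with limma (1 at an unadjusted p under 0.05), the largest difference being that of Il7 (-0.62 ± 0.37, adjusted p = 0.366). The B cell survival factor Tnfsf13b (BAFF) had the largest change of effect and was not called (1.18 ± 0.29, adjusted p = 0.103). With time 4 of the 5 niche genes lay lower on day 7 in each treatment. In SWCNT lungs 3 were called lower, where 6.70% of all genes were, and in PF68 lungs 4, where 8.86% of all genes were. Cxcl13, the chemokine that draws B cells through Cxcr5, was lower on day 7 than on day 1 in SWCNT lungs, at 0.42 and 0.26 against 2.66 and 2.70 (-2.34 ± 0.17, adjusted p = 0.00455). It was also lower in PF68 lungs, at 0.10 and 0.52 on day 7 against 1.88 and 1.97 on day 1 (-1.61 ± 0.17, adjusted p = 0.00873), and its other probe set agreed in sign in both. Il6 (-0.91 ± 0.15 in SWCNT and -1.95 ± 0.15 in PF68 lungs) and Cxcl12 (-0.69 ± 0.11 in SWCNT and -0.83 ± 0.11 in PF68 lungs, with other probe sets of both signs) were also called lower on day 7. The Il6 signal was dim, with both SWCNT means below the array median, and in SWCNT lungs its difference was -0.06 with values below the median set to it (adjusted p = 0.713) and not called with the variance trend (adjusted p = 0.199). In PF68 lungs it was -0.87 with values set to the median (adjusted p = 0.00411). Over the mean of its probe sets Cxcl12 was not called, at -0.05 in SWCNT lungs (adjusted p = 0.92) and -0.23 in PF68 lungs (adjusted p = 0.585). Tnfsf13b was called lower in PF68 lungs (-0.82 ± 0.21, adjusted p = 0.0479). Of the calls between the days among the related genes, that of Cxcl13 in SWCNT lungs was kept with any 1 array left out (adjusted p = 0.00881 to 0.0457), while those of Irf8, Creld2 and Sec11c in PF68 lungs were lost with each, and the others were kept in 2 to 7 of 8 fits.

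Markers of other lymphocytes were set beside the members. On day 1 the mean signal of 11 tested T cell markers was -0.27 to -0.25 in SWCNT lungs, against 0.36 to 0.45 in PF68 lungs, and that of 9 NK cell markers -0.36 to -0.18 in SWCNT lungs, against 0.34 to 0.39 in PF68 lungs. The 9 members averaged 0.45 to 0.52 in SWCNT lungs, against 0.84 to 0.86 in PF68 lungs. All 3 lists thus lay below PF68 on both SWCNT arrays of day 1, with median differences of -0.61 for T cells, -0.53 for NK cells and -0.54 for the members. On day 7 the T cell list averaged 0.29 to 0.30 in SWCNT lungs and 0.23 to 0.27 in PF68 lungs, with a median difference of -0.03, and the median NK cell marker differed by -0.35, while the members averaged 0.87 to 1.00 in SWCNT lungs and 1.13 to 1.33 in PF68 lungs. Of these markers 1 T cell and 1 NK cell gene were called lower on day 1 and none on day 7 with limma (1 of each at an unadjusted p under 0.05). Of markers of other lymphoid tissue, Rag1, Rag2, Dntt and Ptcra of immature lymphocytes were not among the genes tested. The 1 gene of that list that was tested, Cd1d1, read 0.73 to 1.90 on the 8 arrays, above the array median. Ccl21a, Ccl19, Madcam1 and Fdcsp of lymph node were not tested either, and the 3 lymph node markers that were averaged -1.80 to -0.15 on the 8 arrays. Of 4 plasmacytoid dendritic cell markers 1 was called lower on day 1. The erythroid list, of which 2 of 5 genes were tested, averaged 2.50 to 2.58 in SWCNT lungs and 3.63 to 3.68 in PF68 lungs on day 1, and 2.62 to 2.92 in SWCNT and 3.05 to 3.20 in PF68 lungs on day 7. It thus lay below PF68 on both days, as Jchain and Cd79a did, and the part of retained blood was not tested.

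**Figure D5:**
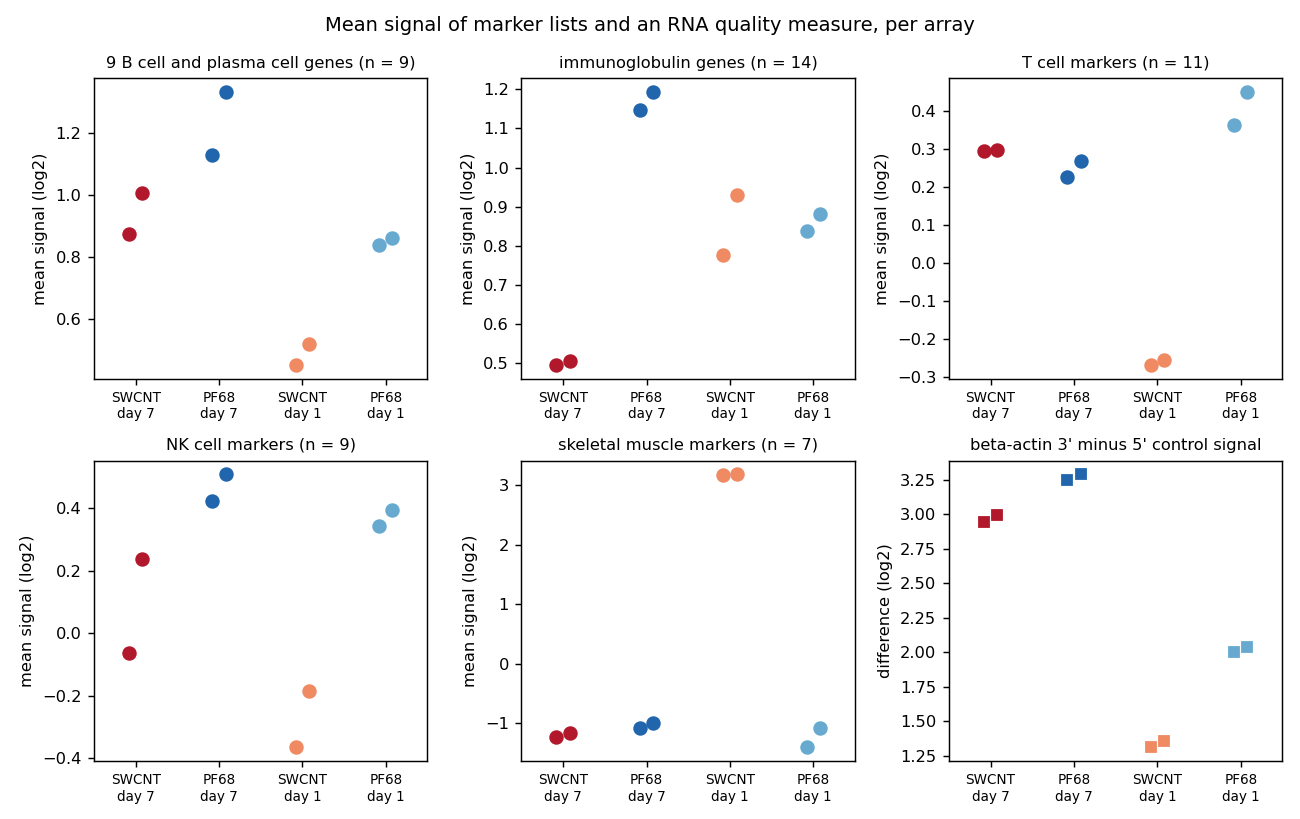
Mean signal (log2) per array of the 9 members, 14 immunoglobulin genes and the T cell, NK cell and skeletal muscle markers tested, with the 3′ minus 5′ control signal of beta-actin in the last panel. Each point is 1 array. The members, T cell markers and NK cell markers are lowest in SWCNT lungs on day 1, as is the beta-actin measure, while the muscle markers stand out above 3 there.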

How the data were processed

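The deposited values are log2 signals of 45101 Affymetrix probe sets on 8 arrays, made by the authors from total RNA labelled with biotin. The submitters' processing notes name RMA and give neither version nor settings. The log base is not given in the sources used here; were it another, every difference would change by 1 factor and no call would. Sorted values are nearly the same on all arrays (SD at most 0.00674), as quantile normalization leaves them, so differences are relative, and the median of -0.628 carries an unexplained offset.

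Left out were 64 control probe sets and 8 with a missing value. The platform's annotation gave 1 symbol to 34939 probe sets, several to 931 and none to 9159. A probe set was kept if it reached the array median on at least 2 arrays (23304 with 1 symbol), and each of 13853 genes was read from its brightest. All 9 members matched a RefSeq gene ID. Using limma 3.58.1 (R 4.3.3), the means of the 4 groups were fitted together (4 residual and 1.81 prior degrees of freedom). Calls are Benjamini-Hochberg adjusted p-values under 0.05 over all genes, and the error beside a difference is its moderated SE. Values of other probe sets come from the same fit over all passing probe sets, an alternative chosen after seeing the data. The fit was tested on simulated data. With 2 arrays a group, their number limits the precision. Related genes were named by a fixed rule: those called (at most 6 a list, 4 immunoglobulins), or else the largest difference. The members and lists were chosen with earlier results of these data known. The gene most like a member is that with the highest Pearson correlation over the 8 arrays. Figures were drawn with matplotlib 3.10.9.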

Additional observations from a re-analysis of the deposited data

Results flagged for a closer look

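Cd22 is listed because its SWCNT arrays lay above both PF68 arrays on day 7 (a difference of 0.64) and below both on day 1 (-0.55). The change of effect was 1.19, with an adjusted p of 0.0537 by limma, so the test of the difference did not pass, and the other Cd22 probe set changed by -1.40. The other 5 are listed because the test of the difference between the days passed. The SWCNT effect on Ccr7 changed by 1.55 (adjusted p = 0.0471 by limma), on Ikzf3 by 1.34 (adjusted p = 0.046) and on Syk by 1.18 (adjusted p = 0.0308). In the fit of the mean of a gene's probe sets none of them was called. There Ccr7 stood at 1.55 (limma, adjusted p = 0.061), Ikzf3 at 0.91 (adjusted p = 0.2) and Syk at 0.76 (adjusted p = 0.225). The SWCNT effect on Ighg3 changed by -2.46 (limma, adjusted p = 0.0286) and that on Ighm by -1.68 (adjusted p = 0.0336). The 7 other probe sets of Ighm went the opposite way, by 0.04 to 1.47, and the mean of all its probe sets changed by 0.22. Skeletal muscle markers and the beta-actin measure also differed between the day 1 groups, and their part in these changes was not tested.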

How the results depend on the processing

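Of 901 values recomputed under alternatives that kept all arrays of the groups compared, 716 kept direction and side of the threshold, and 32 changed sign. With 1 array left out, 491 of 736 kept both and 31 changed sign. Causes were not tested. Counts of all genes called are given in the order day 1, day 7 and change between the days for SWCNT against PF68, then day 7 against day 1 in SWCNT and in PF68 lungs, against 300, 302, 325, 2257 and 2455 as reported. Spike scaling gave 737 (101 higher, 636 lower, against 129 and 171 as reported), 5893 (5813 higher, 80 lower, against 194 and 108) and 6127 (6017 higher, 110 lower, against 196 and 129), 2820 in SWCNT lungs over time (2200 higher, 620 lower, against 1329 and 928) and 5928 in PF68 lungs (172 higher, 5756 lower, against 1228 and 1227). No filter gave 123, 24, 50, 1317 and 1407, and every call of a related gene between treatments or for the change of effect was lost (adjusted p = 0.0504 to 0.117 by limma). The variance trend gave 1254, 1617, 1382 and 3411 in SWCNT lungs. Array weights gave 102 on day 7. The mean of a gene's probe sets gave 193, 97, 157, 1383 and 1457, and setting dim values to the median gave 559, 764 and 740. Fitting only the groups compared gave 57 on day 1, 0 on day 7, 7 in SWCNT and 0 in PF68 lungs. Leaving out 1 array gave 30 to 189, 0 to 18, 3 to 74, 91 to 2319 and 0 to 1841.

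Members called on day 1 (1 as reported) were 2 with spike scaling, and 0 with no filter, with the mean of probe sets, with only 2 groups and with any 1 array left out (0 to 0). On day 7 (0 as reported) they were 1 with spike scaling (Cd22, higher), 3 with the trend and 2 with dim values at the median. For the change between days (0 as reported) they were 3 with spike scaling and 1 each with the trend, array weights and dim values at the median. Over time, 1 was called in SWCNT lungs with the mean of probe sets and 0 with only those groups (0 to 2 with 1 array left out, against 3), and in PF68 lungs 2 with the trend and 0 with only those groups (0 to 2 with 1 array left out, against 1).

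The numbers of the replicates did not pair the arrays (correlations of replicate differences of -0.00597 to 0.0115). With the replicate block, 102 genes were called on day 1, 15 on day 7 and 30 for the change between days, and 0 members on day 1.

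Signs turned as follows. With spike scaling: Ms4a1 -0.194 on day 1; Cd79b 0.0905, Ms4a1 0.169 and Mzb1 0.204 on day 7; between days Cd79a 0.388, Cd79b 0.659, Ms4a1 0.363, Pax5 0.574 and Pou2af1 0.189. Over time, Ms4a1 0.0878 in SWCNT lungs, and in PF68 lungs Cd79a -0.144, Cd79b -0.123, Cd22 -0.591, Ms4a1 -0.275, Blk -0.41, Pax5 -0.348, Pou2af1 -0.512 and Sec11c -0.0552. With the mean of probe sets: Cd22 0.0112, Ms4a1 -0.456 and Ighm -0.494 on day 1, Cd22 -0.0922 on day 7, between days Cd22 -0.103, Pax5 0.122 and Ighm 0.217, and in SWCNT lungs over time Cd22 -0.0341, Ms4a1 0.187 and Ighm 0.0363. With dim values at the median: Ms4a1 -0.012 and Pax5 -0.137 on day 1, Pax5 -0.0433 on day 7 and 0.0936 between days.

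With 1 array left out, signs turned within these ranges. On day 1, Pax5 -0.445 to 1.31 and Ms4a1 -0.488 to 0.536. On day 7, Pax5 -0.414 to 0.931, Blk -0.234 to 0.273 and Pou2f2 -2.46 to 0.26. Between days, Cd79b -0.254 to 0.0809, Pax5 -1.05 to 0.704, Ms4a1 -0.896 to 0.129, Mzb1 -0.0915 to 0.592 and Pou2af1 -1.33 to 0.213. Over time in SWCNT lungs, Ms4a1 -0.347 to 0.221, Pax5 -0.251 to 0.403, Cd79a -0.0666 to 0.252 and Pou2af1 -1.24 to 0.296. Over time in PF68 lungs, Pax5 -0.628 to 1.12, Cd22 -0.175 to 0.184, Ms4a1 -0.192 to 0.833, Blk -0.21 to 0.581 and Pou2af1 -0.125 to 0.292. A group left with 1 array was assumed to vary like the others. Pax5, Blk, Ms4a1 and the other Cd22 probe set lie near or below the array median, where signal over background limits what can be measured.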
